A study of Saccharomyces cerevisiae with 96 samples.

Results

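Sigma elements are the long terminal repeats (LTRs) of Ty3, a retrotransposon of budding yeast. Every row of the count tables whose name contains sigma was taken, which gave 42 copies among 378 LTR rows. There were 7647 RNAs in the capture data and 7620 in the transcriptome data. The other LTR rows were 294 delta (Ty1 and Ty2), 34 tau (Ty4) and 8 omega (Ty5). The study measured RNAs that carry NAD at their 5′ end, and the transcriptome, in haploid BY4742 (MATα his3Δ1 leu2Δ0 lys2Δ0 ura3Δ0) grown in YPD. The 8 strains were WT and the deletion mutants npy1Δ (npy1::kanMX4), dxo1Δ (dxo1::natNT2), rai1Δ (rai1::hphNT1), dxo1Δnpy1Δ, rai1Δnpy1Δ, dxo1Δrai1Δ and dxo1Δrai1Δnpy1Δ, and the mutants were obtained by mating and random spore isolation. NAD captureSeq treats RNA with the enzyme ADPRC, which exchanges part of NAD for an alkyne that is then biotinylated and captured. A library without ADPRC (−ADPRC) is its background. Each strain had 3 +ADPRC and 3 −ADPRC libraries from unfragmented RNA and 3 transcriptome libraries, and WT and npy1Δ also had capture libraries from small and large fragmented RNA, 96 libraries in all.

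Ty3 moves through an RNA copy and inserts next to genes that RNA polymerase III transcribes, most of them tRNA genes, just before the transcription start. Recombination between both ends of an element leaves a single LTR behind, so most sigma copies stand alone. The sigma LTR is the Ty3 promoter, and its pheromone response elements bind Ste12, the transcription factor of the mating pathway. NPY1 encodes a Nudix pyrophosphohydrolase that splits NAD, DXO1 and RAI1 encode related enzymes that remove whole NAD caps from RNA, and Rai1 is the nuclear partner of the 5′ to 3′ exonuclease Rat1.

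All 42 copies were matched by their identifiers to the RefSeq annotation of the R64 assembly (strain S288C), whereas the reads had been counted on a BY4742 assembly, so single letters may differ. The copies were 67 to 679 bases long with a median of 340 bases, 31 had 300 bases or more, and 7 had fewer than 100. A tRNA gene lay within 20 bases of 34 copies, at 14 to 18 bases and a median of 16. In 25 of these the tRNA gene was upstream and on the opposite strand, the arrangement in which the LTR start faces the tRNA gene start. The letters TGAAACA, the core of the pheromone response element, were searched on both strands. They occurred on the own strand of 36 of the 42 copies (85.7%), first at base 68 in 29 of them, and on the other strand of 4.8%. The share on the own strand was 24.4% among 299 annotated delta LTRs and 5.7% among 35 tau LTRs, and none of the 8 omega LTRs held the letters on its own strand, while 62.5% of omega LTRs, 0.3% of delta LTRs and no tau LTR held them on the other strand.

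The 6 copies below are a reference and copies that carry the results, and TGAAACA is in capitals. YGRWsigma4, an LTR of a full-length Ty3, serves as the reference, and the first 130 bases of it and of 4 copies are given with the whole of YNLWsigma2, 5′ to 3′ on the LTR strand.
YGRWsigma4: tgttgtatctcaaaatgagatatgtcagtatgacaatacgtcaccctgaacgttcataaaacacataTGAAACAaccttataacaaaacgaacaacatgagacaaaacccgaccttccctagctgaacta
YGLCsigma1: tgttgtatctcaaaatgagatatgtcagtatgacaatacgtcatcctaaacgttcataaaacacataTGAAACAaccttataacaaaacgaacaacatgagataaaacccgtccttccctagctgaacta
YDRWsigma5: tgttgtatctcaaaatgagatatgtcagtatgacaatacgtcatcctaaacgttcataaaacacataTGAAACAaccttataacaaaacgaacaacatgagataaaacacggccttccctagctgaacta
YILWsigma3: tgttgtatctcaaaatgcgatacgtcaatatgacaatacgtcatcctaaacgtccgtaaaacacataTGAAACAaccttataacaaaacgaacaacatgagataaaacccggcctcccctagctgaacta
YORWsigma4: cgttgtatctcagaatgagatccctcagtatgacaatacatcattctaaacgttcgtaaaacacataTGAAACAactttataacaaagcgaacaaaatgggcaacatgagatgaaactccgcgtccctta
YNLWsigma2: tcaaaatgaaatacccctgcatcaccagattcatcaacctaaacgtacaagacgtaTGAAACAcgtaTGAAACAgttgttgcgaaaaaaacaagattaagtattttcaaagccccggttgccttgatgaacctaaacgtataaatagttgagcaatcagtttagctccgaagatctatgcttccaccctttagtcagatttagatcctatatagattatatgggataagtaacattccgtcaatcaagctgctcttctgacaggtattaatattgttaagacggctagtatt

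These copies differed in how far a read can be assigned. YGRWsigma4 had 5 identical partners, counted together as 6 copies (YARWsigma1, YKLCsigma1, YGRWsigma4, YGRWsigma5, YILWsigma1 and YILWsigma2), and 24 copies were at least 97% identical to it. Of all 25-base windows, none was unique in the genome in 10 copies, and 17 copies had 50% or more unique windows. YNLWsigma2 (chrXIV:546423-546714, + strand, R64) was the most divergent, with 71.0% identity and 100% unique windows, and was the only copy with TGAAACA at 2 places on its own strand, bases 57 and 68. It lies 23 bases before YNLWsigma3 (chrXIV:546738-547077, + strand), which was 99.7% identical to the reference and had no unique window. YORWsigma4 (chrXV:968991-969301, + strand) had 87.0% identity and 87.1% unique windows, shared 9 bases with a delta LTR, YORWdelta22, and was 7119 bases from the nearest tRNA gene. YILWsigma3 (chrIX:324391-324734, + strand) had 79.7% unique windows and stood 16 bases from a tRNA-Asp gene. It began 285 bases downstream of the end of BAR1, on the same strand. BAR1 encodes the protease that degrades α-factor. YGLCsigma1 (chrVII:319423-319762, − strand, 18 bases from a tRNA-His gene) had 19.9% unique windows and YDRWsigma5 (chrIV:1023137-1023477, + strand, 5858 bases from a tRNA-Glu gene) had 23.7%. The aligner placed a read with several equal sites at one of them, so values of copies with few unique windows are uncertain.

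Counted reads per library ran from 470978 to 29300164 in the unfragmented capture, from 5814668 to 33878538 in the fragmented capture and from 4926021 to 17733417 in the transcriptome. Sigma copies received 4430 capture reads and 39013 transcriptome reads in all. The deleted genes matched the labels: NPY1 had 0 to 13 transcriptome reads in strains without it against 32 to 195, and RAI1 had 0 to 1 in strains without it. DXO1 had 0 to 2 reads in its deletion strains, 7 to 22 in other mutants, but 0, 0 and 5 in WT, so it did not separate WT from the deletion. The WT transcriptome libraries stood apart from all mutants, including npy1Δ of the same sequencing run. RPA190, a subunit of RNA polymerase I, had 30, 34 and 57 reads in WT against 567 to 999 elsewhere, and MF(ALPHA)1, the α-factor gene of MATα cells, had 180 to 286 against 3467 to 9045. PCK1, a gluconeogenesis gene that glucose represses, averaged 1030 ± 115 CPM (counts per 1000000 reads, TMM-normalised, SD, n = 3) in WT and 0.379 to 1.54 in the mutants. Whether the WT libraries match their label in growth state and identity is therefore in doubt, every comparison with WT carries these differences, and their part in it was not tested. By the run identifiers, WT and npy1Δ shared a transcriptome run and the 6 other mutants another, so these 6 cannot be told apart from their run when set against WT.

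To ask which sigma transcripts carried NAD, +ADPRC and −ADPRC libraries of each strain were compared. A copy was called enriched at a log2 fold change above 0.5 and an unadjusted p below 0.05 in edgeR's quasi-likelihood test, the limits of the study, and copies with a normalised mean of 1 or less were not tested. Since most untested copies had few reads in both arms, the tested ones had often passed through high +ADPRC counts, and the counts are a description. In WT 2 of 3 tested copies were enriched (50.9% of all RNAs tested were), in npy1Δ 1 of 27 (51.1%), in dxo1Δ 3 of 3 (87.4%) and in rai1Δ 6 of 9 (67.7%). In dxo1Δnpy1Δ 3 of 7 were enriched (67.0%), in rai1Δnpy1Δ 4 of 5 (83.3%), in dxo1Δrai1Δ 17 of 25 (74.5%) and in dxo1Δrai1Δnpy1Δ 14 of 27 (60.0%). At an adjusted p below 0.05, edgeR left 2, 0, 3, 5, 2, 4, 17 and 13 copies in that order of strains. Scaling and tool moved several counts: with RLE factors 5 copies were enriched in dxo1Δ, 21 in rai1Δ, 19 in dxo1Δnpy1Δ, 8 in rai1Δnpy1Δ and 22 in dxo1Δrai1Δnpy1Δ, and DESeq2 called 11 in rai1Δ and 13 in dxo1Δnpy1Δ, so no order of the strains is read from them. Taken over strains, 29 copies were tested in 1 or more, and 21 were enriched in 1 or more, of which 8 in 3 or more. The like share over all RNAs was not counted. With 50.9 to 87.4% of tested RNAs enriched per strain, these counts say little about sigma copies in particular. Single libraries mattered: without one of them, the count was 1 in WT (+ADPRC 3), 0 in npy1Δ (+ADPRC 1, 2 or 3), 1 to 2 in rai1Δ (−ADPRC 2, +ADPRC 1 or 2), 1 in dxo1Δnpy1Δ (−ADPRC 2, +ADPRC 1, 2 or 3), 11 and 9 in dxo1Δrai1Δ (+ADPRC 1 and 3), 7 in rai1Δnpy1Δ (−ADPRC 2 or 3), and 8 and 7 in dxo1Δrai1Δnpy1Δ (−ADPRC 1 and 2).

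YNLWsigma2 was the sigma copy with the most capture reads, 649, and was enriched in each of the 7 mutants, whereas WT had almost none. In unfragmented WT it had 0, 0 and 2 reads in the +ADPRC libraries and 1, 0 and 0 in the −ADPRC libraries. In npy1Δ the +ADPRC libraries held 49, 12 and 49 reads and the −ADPRC libraries 1, 6 and 8. In dxo1Δ there were 16, 23 and 21 reads with ADPRC and none without. All +ADPRC libraries of these mutants lay above all −ADPRC libraries.

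The same held in the other mutants. YNLWsigma2 had 44, 10 and 9 reads with ADPRC and none without in rai1Δ, and 26, 63 and 13 with and none without in dxo1Δnpy1Δ. In dxo1Δrai1Δ the +ADPRC libraries had 35, 19 and 35 reads and the −ADPRC libraries 1, 0 and 0. In rai1Δnpy1Δ they had 6, 5 and 5 against 1, 0 and 0, and in dxo1Δrai1Δnpy1Δ 39, 51 and 44 against 0, 0 and 2. Groups did not overlap in any mutant. Relative to library size after TMM scaling, YNLWsigma2 was 3.83-fold higher with ADPRC in npy1Δ (95% counting interval 2.23 to 7.08), with an adjusted p of 0.0503 in edgeR's test over all RNAs. Against a floor of 3 reads per empty group it was at least 10.95-fold higher in dxo1Δ (adjusted p = 9.078e-11), at least 4.49-fold in rai1Δ (adjusted p = 0.00138) and at least 6.38-fold in dxo1Δnpy1Δ (adjusted p = 8.275e-06) by edgeR. The fold was 16.9 in dxo1Δrai1Δ (2.97 to 677), 11.4 in rai1Δnpy1Δ (1.77 to 479) and 11.1 in dxo1Δrai1Δnpy1Δ (3.02 to 92.9), with edgeR adjusted p of 2.854e-05, 0.00203 and 7.886e-05. Intervals and floors cover counting error only.

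**Figure D1:**
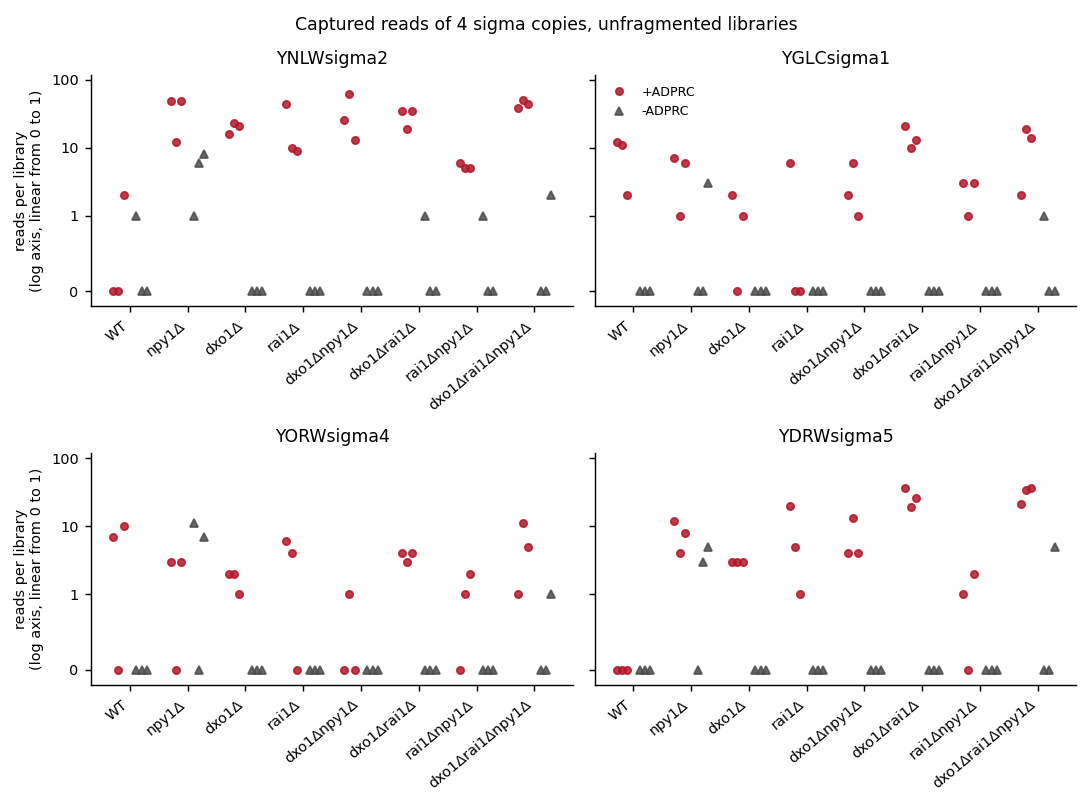
Reads of 4 sigma copies in each unfragmented capture library (vertical axis, symmetric log scale) by strain (horizontal axis), with +ADPRC libraries as red circles and −ADPRC libraries as grey triangles. YNLWsigma2 has 0 to 2 reads in WT and 5 to 63 in the +ADPRC libraries of the mutants, while YGLCsigma1 and YORWsigma4 have their WT reads with ADPRC and none without.

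WT showed other copies. YGLCsigma1 had 12, 11 and 2 reads with ADPRC and none without, at least 5.41-fold (edgeR adjusted p = 0.0179). YORWsigma4 had 7, 0 and 10 reads with ADPRC and none without, at least 3.68-fold (edgeR adjusted p = 0.0256), and 1 of its +ADPRC libraries was therefore no higher than the background. In npy1Δ, YORWsigma4 had 3, 0 and 3 reads with ADPRC and 11, 0 and 7 without. YGLCsigma1 was again seen with ADPRC in dxo1Δrai1Δ, with 21, 10 and 13 reads against none, and in dxo1Δrai1Δnpy1Δ, with 2, 19 and 14 against 1, 0 and 0.

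In npy1Δ the background held the most sigma reads. Its −ADPRC libraries held 26, 70 and 134 sigma reads from 13, 18 and 28 copies, 230 in all against 465 with ADPRC, whereas the −ADPRC sums of the other 7 strains were 3 to 51. Per 1000000 mRNA reads this was 710, 888 and 2046 without ADPRC against 295, 260 and 369 with it. Other strains overlapped this range on few reads, up to 906 in dxo1Δrai1Δnpy1Δ and 1721 (2 sigma reads) in a −ADPRC library of rai1Δnpy1Δ. Pooled over the 3 libraries, the share of mRNA reads was also higher without than with ADPRC in rai1Δ (611 against 549) and dxo1Δrai1Δnpy1Δ (835 against 626). The values without ADPRC rested on 15 and 51 sigma reads. YGRWsigma7 (chrVII:845281-845602, 46 bases from a tRNA-Gly gene) was depleted, with 1, 0 and 3 reads with ADPRC and 0, 13 and 23 without (fold 0.058, 95% counting interval 0.015 to 0.162, edgeR adjusted p = 0.0201; 9.48% of all RNAs tested were depleted). It was the depleted copy in this strain, and its −ADPRC libraries overlapped the +ADPRC libraries at 0.

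The strains that lack both DXO1 and RAI1 held the most captured sigma reads as raw counts, which depend on library depth. Per 1000000 counted reads, their +ADPRC libraries had 24.6 to 48.5 (dxo1Δrai1Δ) and 25.2 to 34.8 (dxo1Δrai1Δnpy1Δ). This overlapped rai1Δ (21.8 to 56.3) and npy1Δ (25.2 to 37.1), and rai1Δnpy1Δ had 42.9 to 45.7. WT, dxo1Δ and dxo1Δnpy1Δ were lower, at 6.72 to 17.2. The part of depth in the raw order was not tested. Other copies were enriched in the strains that lack both genes as well. These calls were not confined to those strains: over all strains YDRWsigma5 was called in 5 of 6 tested and YDRWsigma2 in 4 of 5. YDRWsigma5, absent from the 6 WT libraries, had 36, 19 and 26 reads with ADPRC and none without in dxo1Δrai1Δ (at least 5.14-fold, edgeR adjusted p = 3.95e-06), and 21, 34 and 37 against 0, 0 and 5 in dxo1Δrai1Δnpy1Δ. YDRWsigma2 (chrIV:668096-668436, no unique window) had 38, 21 and 17 reads against none in dxo1Δrai1Δ (at least 4.83-fold, edgeR adjusted p = 7.546e-06) and 13, 31 and 38 against 0, 0 and 1 in dxo1Δrai1Δnpy1Δ (13.6-fold, 2.38 to 545). For both copies, each +ADPRC library was above each −ADPRC library. YNRWsigma4 (chrXIV:726234-726574, 16 bases from a tRNA-Leu gene) had 35, 19 and 18 reads against 1, 0 and 0 in dxo1Δrai1Δ (13.7-fold, 2.38 to 549) and 15, 18 and 31 against none in dxo1Δrai1Δnpy1Δ (at least 3.55-fold). YPRWsigma3 (chrXVI:856545-856885, 16 bases from a tRNA-Ala gene and overlapping a Ty1 on the other strand) was tested in all 8 strains and called in 4. Its dxo1Δrai1Δ libraries had 31, 15 and 17 reads with ADPRC and 1, 0 and 1 without (6.00-fold, 1.59 to 50.6). YBLWsigma1 (chrII:197714-198054) and YARWsigma1 (chrI:182620-182959, identical to the reference) reached at least 3.43-fold and 8.76-fold in dxo1Δrai1Δ, and YILWsigma3 reached 9.81-fold in dxo1Δrai1Δnpy1Δ. Apart from YNLWsigma2 and YILWsigma3, these copies had at most 23.7% unique windows.

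In fragmented RNA no sigma copy was enriched in either strain or size class. In small fragmented RNA none of 4 tested copies in WT (12.4% of all RNAs were called) and none of 3 in npy1Δ (13.2%) passed the unadjusted p of edgeR, and in large fragmented RNA none of 5 in WT (13.2%) and none of 2 in npy1Δ (9.42%). DESeq2 called 0 in each. YNLWsigma2 in small fragmented npy1Δ had 1, 11 and 2 reads with ADPRC and 2, 1 and 3 without, and in large fragmented npy1Δ 10, 4 and 1 against 3, 1 and 3. Both pairs of groups overlapped. Sigma sums were 72 with and 36 without ADPRC in small fragmented WT, 74 and 45 in small fragmented npy1Δ, 45 and 34 in large fragmented WT and 55 and 55 in large fragmented npy1Δ, so the depth could show only large differences.

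Whether deletion of NPY1 changed the enrichment was tested as an interaction within each sequencing run. Between npy1Δ and WT 1 of 17 tested copies differed, YORWsigma4, with an edgeR log2 difference of −10.17 (SE 2.54, adjusted p = 0.00186), while 8.13% of all RNAs differed. Its WT −ADPRC libraries were empty, so the size depends on the prior count, and DESeq2 gave −7.24 without a call. None of 3 copies differed between dxo1Δnpy1Δ and dxo1Δ (2.58% of all RNAs; 0 copies at an unadjusted p below 0.05) or of 6 between rai1Δnpy1Δ and rai1Δ (0% of all RNAs; 0 at the unadjusted p). Between dxo1Δrai1Δnpy1Δ and dxo1Δrai1Δ, 0 of 28 differed by the adjusted p (0.0975% of all RNAs). At the unadjusted p 4 did, and as the share of all RNAs at that limit is not given, nothing is read from them. DESeq2 called 0 in these 3 pairs.

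The captured reads were spread over the copies differently from the transcriptome reads. YNLWsigma2 made up 23.7% of the captured sigma reads in npy1Δ (exact Clopper-Pearson 95% interval 19.9 to 27.8) against 6.05% of the transcriptome sigma reads, and 38.5% in dxo1Δ (30.8 to 46.6) against 4.32%. The shares were 14.4% (11.3 to 18.1) against 3.94% in rai1Δ, 29.8% (25.0 to 35.0) against 4.66% in dxo1Δnpy1Δ, 9.30% (7.54 to 11.3) against 3.80% in dxo1Δrai1Δ, 12.2% (7.15 to 19.1) against 3.05% in rai1Δnpy1Δ and 12.2% (10.3 to 14.3) against 3.13% in dxo1Δrai1Δnpy1Δ. The intervals pool the reads of 3 libraries and cover counting error only, not the spread between libraries. Single +ADPRC libraries of rai1Δ, for example, ran from 13.3 to 27.3%. In each mutant all 3 +ADPRC libraries lay above all 3 transcriptome libraries. WT differed, with 2.13% (0.259 to 7.48) captured and 6.05% of the transcriptome.

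The row of its neighbour went the other way, though YNLWsigma3 had no unique window and its reads cannot be assigned to that copy alone. YNLWsigma3 made up 5.66 to 8.41% of the transcriptome sigma reads of the mutants and 0.292 to 2.06% of their captured sigma reads. In WT it had no captured read, which allows a share of up to 3.85%, and 4.35% of the transcriptome. YDRWsigma5 was over-represented like YNLWsigma2, with 8.46% captured against 0.727% of the transcriptome in dxo1Δrai1Δ and 8.39% against 0.637% in dxo1Δrai1Δnpy1Δ. YGLCsigma1 took 26.6% of the captured sigma reads in WT (18.0 to 36.7 by counting error) and 4.46% of the transcriptome. Its share in single WT +ADPRC libraries ran from 7.41 to 52.4%. Both kinds of library differ in preparation and in the part of the transcript read, and the part of this in the shares was not tested.

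**Figure D2:**
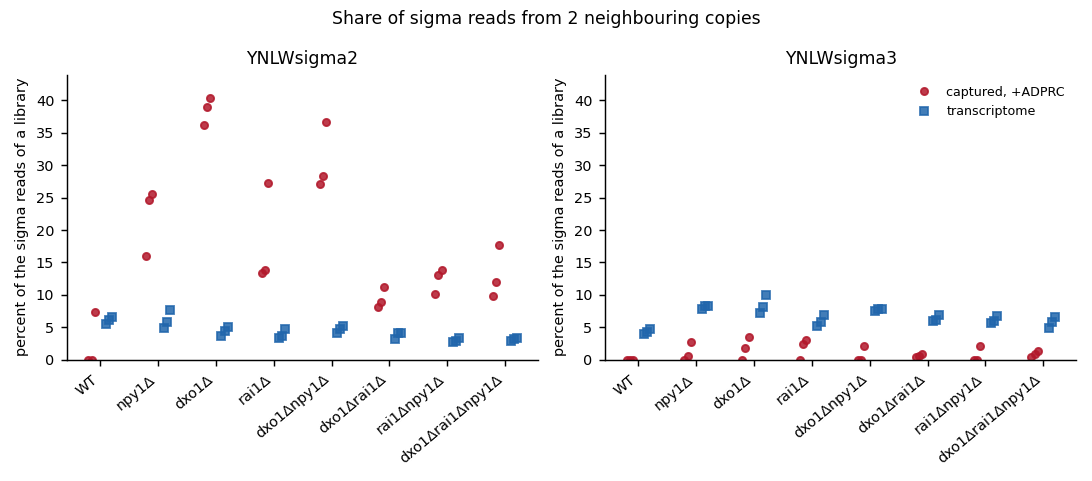
Share of all sigma reads (percent, vertical axis) that came from YNLWsigma2 and YNLWsigma3 in each library, by strain (horizontal axis), for captured +ADPRC libraries (red circles) and transcriptome libraries (blue squares). In the 7 mutants YNLWsigma2 is higher in the captured libraries, from a pooled 9.30% to 38.5%, while YNLWsigma3 reaches at most 3.45% in a captured library and 4.81% or more in every transcriptome library of a mutant. YNLWsigma3 has no unique window, so its reads cannot be assigned to that copy alone.

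The transcriptome comparisons asked how the level of each copy differed from WT, with a call at an adjusted p below 0.05 in edgeR. Of 34 tested copies, 2 were higher and 22 lower in npy1Δ (35.6% and 34.6% of all RNAs), 2 and 18 in dxo1Δ (38.0% and 36.1%), 2 and 20 in dxo1Δnpy1Δ (38.2% and 36.7%), 8 and 10 in rai1Δ (40.3% and 36.3%), 6 and 11 in rai1Δnpy1Δ (39.3% and 36.4%), 9 and 10 in dxo1Δrai1Δ (39.8% and 35.5%), and 9 and 9 in dxo1Δrai1Δnpy1Δ (40.7% and 36.8%). The median log2 change of the sigma copies was −0.93, −0.78 and −0.79 in npy1Δ, dxo1Δ and dxo1Δnpy1Δ, and −0.27, −0.25, −0.01 and −0.17 in rai1Δ, rai1Δnpy1Δ, dxo1Δrai1Δ and dxo1Δrai1Δnpy1Δ. The 4 strains without RAI1 were nearer to WT, and all 7 comparisons share the same WT libraries. Scaling by total counts moved the median of all RNAs to 1.5 to 1.91, from 0.03 to 0.14 with TMM, and the split then became 14 higher and 7 lower in npy1Δ, 19 and 8 in dxo1Δ, 20 and 7 in dxo1Δnpy1Δ, 27 and 4 in rai1Δ, 24 and 4 in rai1Δnpy1Δ, 27 and 3 in dxo1Δrai1Δ and 26 and 4 in dxo1Δrai1Δnpy1Δ. Relative to that shifted median the sigma medians were −0.94, −0.86, −0.86, −0.45, −0.39, −0.15 and −0.31. With mRNAs counted over their coding sequence, rai1Δ had 14 higher and 7 lower, rai1Δnpy1Δ 13 and 9, dxo1Δrai1Δ 15 and 9 and dxo1Δrai1Δnpy1Δ 15 and 8. In bulk RNA, fewer cells that express a copy and less RNA per cell cannot be told apart.

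Of all copies, 9 were lower in every mutant (YERCsigma3, YILWsigma3, YLRWsigma3, YNLCsigma1, YNLWsigma2, YOLWsigma1, YORWsigma2, YORWsigma4 and YPLWsigma1) and 0 were higher in every mutant. Each comparison used the same WT libraries and had 34.6 to 36.8% of all RNAs lower. The share of all RNAs lower in all 7 was not counted, so the 9 are a description. Under total counts YILWsigma3, YORWsigma2 and YORWsigma4 stayed lower in all 7 and 14 copies were higher in all 7, and with mRNAs counted over their coding sequence 6 were lower and 1, YDRWsigma5, was higher. YORWsigma4 was the leading sigma transcript of WT, with 581, 543 and 607 reads. It had 47, 53 and 41 reads in npy1Δ and 31 to 117 in the libraries of the other 6 mutants. Its TMM-normalised level was 109 ± 16.2 CPM in WT (SD, n = 3) and 6.29 to 10.6 on average in the mutants, and it fell by 3.33 to 4.10 on the log2 scale (adjusted p between 4.474e-13 and 1.017e-22 in edgeR). WT did not overlap any mutant.

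YILWsigma3 had 129, 109 and 121 reads in WT and 9, 10 and 8 in npy1Δ. In dxo1Δ it had 4, 9 and 4 reads and in dxo1Δnpy1Δ 2, 4 and 4. In the strains without RAI1 every library held 27 to 45. Its level was 22.7 ± 4.86 CPM in WT, 0.534 ± 0.234 in dxo1Δnpy1Δ and 4.04 to 4.67 on average in the strains without RAI1 (SD, n = 3). WT, the strains without RAI1 and the mutants that keep it did not overlap. YGLCsigma1 had 74, 84 and 112 reads in WT, 41, 39 and 40 in npy1Δ, 19, 22 and 13 in dxo1Δ and 19, 16 and 14 in dxo1Δnpy1Δ. It fell by 1.62, 2.55 and 2.74 on the log2 scale in these 3 mutants (edgeR adjusted p = 1.788e-07, 1.827e-12 and 5.017e-14) and had log2 values of −0.02 to 0.19 in the strains without RAI1, with no call. YNLWsigma2 itself had 129, 119 and 118 reads in WT and fell by 1.1 to 1.80 in every mutant under TMM. With that scaling, the copy with almost no captured reads in WT had its highest transcript level there. Scaled by total counts instead, its CPM were 10.3, 8.49 and 6.65 in WT and 14.7, 10.5 and 10.7 in rai1Δ. In dxo1Δ they were 6.74, 7.92 and 7.67. The highest level in WT thus depended on the scaling.

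Higher calls were mostly in strains without RAI1. YNRWsigma4 had 50, 52 and 63 reads in WT, 136, 199 and 189 in rai1Δ and 147, 319 and 223 in dxo1Δrai1Δ, and rose by log2 1.22 to 1.38 in the 4 strains without RAI1 (edgeR adjusted p from 8.937e-07 to 3.978e-09), while log2 was −0.59 in dxo1Δ and −0.82 in dxo1Δnpy1Δ, both called lower. YPRWsigma4 (chrXVI:880386-880726, 53.9% unique windows, 16 bases from a tRNA-Ile gene) had 1, 1 and 3 reads in WT and 8 to 24 in the libraries without RAI1, with log2 2.12 to 2.64 and a call in each of these 4 strains. YDRWsigma5 was higher in 6 mutants, by log2 1.01 to 2.23 with 13 reads over the 3 WT libraries, and had log2 0.79 in rai1Δnpy1Δ without a call. The 2 copies called higher in npy1Δ were YNRWsigma4 and YDRWsigma5, and both calls were lost in DESeq2 and with a replicate block, which called 0 copies higher there.

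**Figure D3:**
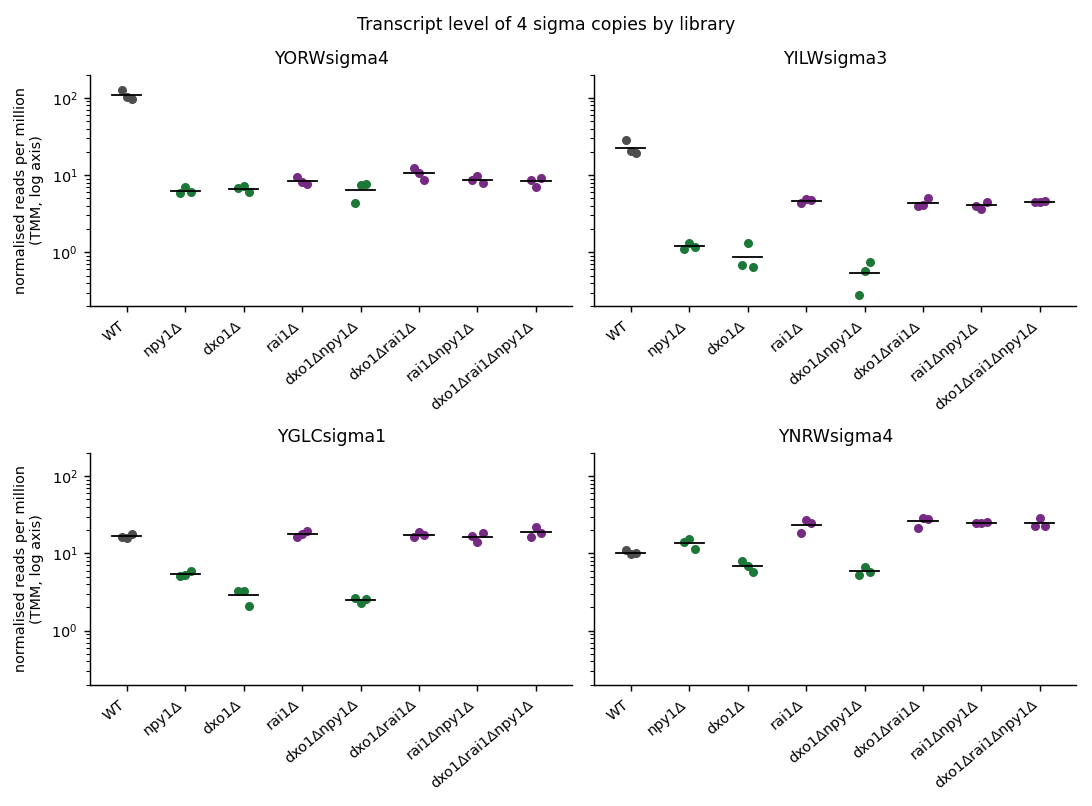
TMM-normalised CPM of 4 sigma copies in each transcriptome library (vertical axis, log scale) by strain (horizontal axis), with WT in grey, mutants that keep RAI1 in green and strains without RAI1 in purple. YORWsigma4 averages 109 in WT and at most 10.6 elsewhere, while YGLCsigma1 averages 2.53 to 5.37 in the mutants that keep RAI1 and 16.5 to 18.7 in the strains without it.

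The mutants sequenced together gave comparisons free of the run and of WT. Deleting RAI1 from dxo1Δ gave 20 copies higher and 0 lower of 34 tested (8.36% and 7.11% of all RNAs), with a sigma median of log2 0.74 against 0.01 for all RNAs. Deleting it from dxo1Δnpy1Δ gave 15 higher and 1 lower of 33 (14.2% and 14.4% of all RNAs), with medians of 0.70 and 0.03. DESeq2 called 11 and 13 copies higher. The 2 comparisons share no library, and 15 copies were called higher in both, which is 75.0% of the first list and 100% of the second. Of 33 copies tested in both, 30 had a log2 change above 0 in both. The like shares over all RNAs were not counted, so this overlap is a description. Among the 15, YARWsigma1, YDRWsigma2 and YKLCsigma1 had no unique window, so the copies are not independent of each other.

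YGLCsigma1 had 19, 22 and 13 reads in dxo1Δ and 114, 206 and 138 in dxo1Δrai1Δ, log2 2.62 (SE 0.205, edgeR adjusted p = 2.636e-11). It had 19, 16 and 14 reads in dxo1Δnpy1Δ and 131, 150 and 159 in dxo1Δrai1Δnpy1Δ, log2 2.90 (SE 0.203, edgeR adjusted p = 3.034e-10). Neither pair of groups overlapped. YILWsigma3 rose by log2 2.29 and 3.11, YNRWsigma4 by 1.95 and 2.09, and YPRWsigma4, with 0, 1 and 1 reads in dxo1Δ and 10, 24 and 14 in dxo1Δrai1Δ, by 3.93 and 2.24. YNLCsigma1 (69 bases long) rose by 1.76 and 2.92, YERCsigma1 by 1.44 and 2.14, YLRWsigma3 by 1.62 and 1.48, YORWsigma3 by 1.45 and 1.48, YARWsigma1 by 1.04 and 0.93 and YPRWsigma3, the copy with the most transcriptome reads, by 0.65 and 0.57. YORWsigma4 and YNLWsigma2 were called higher in the first comparison, at log2 0.66 and 0.67, but not in the second, at 0.39 and 0.18. YDRWsigma5 went against the others, with 31, 20 and 25 reads in dxo1Δnpy1Δ and 10, 13 and 15 in dxo1Δrai1Δnpy1Δ (log2 −1.26, SE 0.304, edgeR adjusted p = 0.00296), and had log2 −0.43 in the first comparison without a call. YLRCsigma1 had log2 −1.0 and −1.46 without a call.

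**Figure D4:**
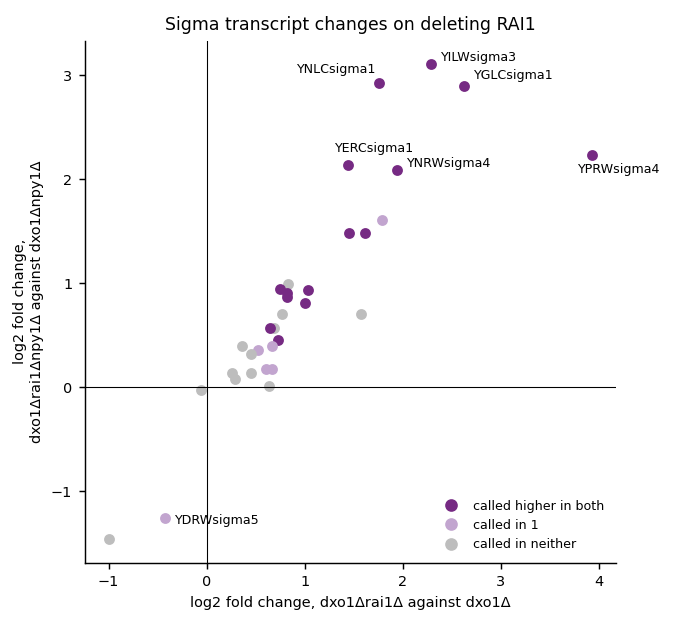
Log2 change of each tested sigma copy when RAI1 is deleted from dxo1Δ (horizontal axis) and from dxo1Δnpy1Δ (vertical axis), with copies called higher in both in dark purple, in 1 in light purple and in neither in grey. 15 copies are called higher in both, and YDRWsigma5 is lower at −1.26 on the vertical axis.

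Deleting NPY1 or DXO1 from the same strains gave no call. Of 33 copies, 0 differed between dxo1Δnpy1Δ and dxo1Δ (0.0289% of all RNAs; 0 copies at an unadjusted p below 0.05 in edgeR) and 0 between rai1Δnpy1Δ and rai1Δ (0.0574%; 1 copy at the unadjusted p). Of 34, 0 differed between dxo1Δrai1Δnpy1Δ and dxo1Δrai1Δ (0.949%; 1 copy at the unadjusted p). For DXO1, 0 of 33 differed between dxo1Δrai1Δ and rai1Δ (0.719%; 1 at the unadjusted p) and 0 of 33 between dxo1Δrai1Δnpy1Δ and rai1Δnpy1Δ (0.115%; 3 at the unadjusted p). DESeq2 called 0 copies in each of these 5 comparisons. YGLCsigma1 had log2 −0.18 (SE 0.314) in the first and −0.04 (SE 0.140) in dxo1Δrai1Δ against rai1Δ, values well below its change with RAI1.

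The sum of all copies showed the same order of strains. Sigma transcripts made up 1215.4 to 1438.1 reads per 1000000 mRNA reads in WT, 593.5 to 741.7 in npy1Δ, 614.6 to 774.4 in dxo1Δ and 613.7 to 731.4 in dxo1Δnpy1Δ. They made up 1038.4 to 1119.0 in rai1Δ, 1048.0 to 1111.6 in rai1Δnpy1Δ, 1208.8 to 1458.7 in dxo1Δrai1Δ and 1066.5 to 1164.2 in dxo1Δrai1Δnpy1Δ, so every library without RAI1 was above every library of the mutants that keep it. YORWsigma4 alone was 28.6% of the WT sigma reads, and without it WT had 872.0 to 1008.5. In the +ADPRC capture the same sum was 459 to 748 in strains without RAI1 and 214 to 369 in mutants that keep it, with no overlap, but these strains were captured in different runs and the part of the run was not tested. The pooled −ADPRC background was 518 to 835 in strains without RAI1, 152 in dxo1Δ and 139 in dxo1Δnpy1Δ. In npy1Δ, which keeps RAI1, it was 1270 and thus above all of these. Some of these values rest on few −ADPRC sigma reads, with 3 in dxo1Δ, 4 in rai1Δnpy1Δ and 10 in dxo1Δnpy1Δ. The ratio of +ADPRC to −ADPRC was 0.75 to 1.14 in strains without RAI1. WT had 225, 343 and 900.

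**Figure D5:**
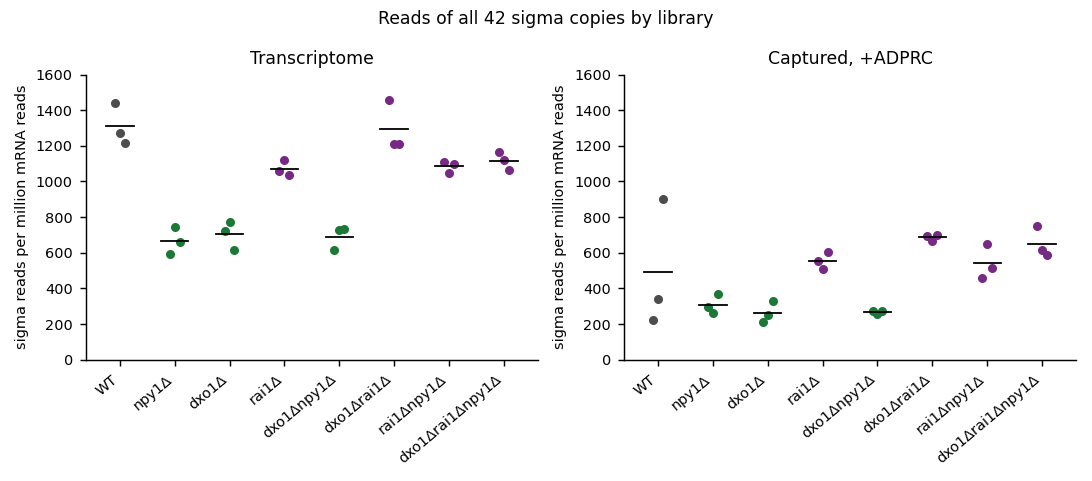
Sum of the 42 sigma copies in reads per 1000000 mRNA reads (vertical axis) for each transcriptome library and each unfragmented +ADPRC library, by strain (horizontal axis), with WT in grey, mutants that keep RAI1 in green, strains without RAI1 in purple and a line at the mean of 3. In the transcriptome the strains without RAI1 lie at 1038.4 or more and the mutants that keep it at 774.4 or less.

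Other LTR families were counted in the same comparisons of strains with and without RAI1. From dxo1Δ, where 8.36% of all RNAs were higher and 7.11% lower, delta LTRs had 24 higher and 3 lower of 181 (median log2 0.25) and tau LTRs 12 higher and 0 lower of 27 (median 0.72), near the sigma median of 0.74. From dxo1Δnpy1Δ, where the shares of all RNAs were 14.2% and 14.4%, delta had 21 higher and 7 lower of 183 (median 0.24) and tau 6 and 2 of 26 (median 0.43). The differences between families were not tested.

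The 2 full-length Ty3 elements were counted in rows of their own. Their 4 LTRs (YGRWsigma4, YGRWsigma5, YILWsigma1 and YILWsigma2) had no read in any library, and these were the copies without a read in both assays. They lie inside the element rows on the same strand in R64, whereas YARWsigma1, identical in sequence but alone, had 2457 transcriptome reads. Where rows overlap on the same strand, a count of 0 does not show that no RNA was present. The element row YGRWTy3-1 had 114 transcriptome reads over the 3 WT libraries, 104 in npy1Δ, 33 in dxo1Δ, 27 in dxo1Δnpy1Δ, 131 in rai1Δ, 149 in rai1Δnpy1Δ, 220 in dxo1Δrai1Δ and 177 in dxo1Δrai1Δnpy1Δ. YILWTy3-1 had 110, 113, 18, 10, 47, 36, 72 and 48 reads in the same order. Both rows thus had more reads in dxo1Δrai1Δ than in dxo1Δ and in dxo1Δrai1Δnpy1Δ than in dxo1Δnpy1Δ, as sums without a test. Both had at most 4 reads in an unfragmented capture group. The Ty3 frames YGR109W-A, YGR109W-B and YIL082W-A, which encode its Gag and Pol proteins, were at 0 in every library, and YIL082W had 147 reads in WT and 162 in npy1Δ and 0 in the other strains, which follows the sequencing run.

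Genes that act with Ty3 were counted beside the copies, in comparisons where 35.6 to 40.7% of all RNAs were higher than WT and 34.6 to 36.8% lower. Of 26 pheromone response genes, 12 were higher and 6 lower than WT in npy1Δ (25 tested), 15 and 6 in dxo1Δ, 14 and 6 in dxo1Δnpy1Δ and 17 higher with 6 or 7 lower in the 4 strains without RAI1. FUS1, a mating gene that Ste12 induces, averaged 0.9 CPM in WT, 3.2 to 6.4 in mutants that keep RAI1 and 8.2 to 10.6 in the strains without it. Its single libraries overlapped, at 2.16 to 7.97 CPM in mutants that keep RAI1 and 6.32 to 12.0 without it. MF(ALPHA)1 (491 to 828 and 735 to 1019) and the mating gene STE3 (45.4 to 88.3 and 66.5 to 95.5) overlapped as well. Of 9 RNA polymerase III initiation factor genes 1 or 2 were higher and 1 to 3 lower in each mutant, and of 7 genes of 5′ to 3′ decay 2 or 3 were higher and 1 to 3 lower, counts that say little against those shares. WT stood apart in these lists as well, and its part in the counts was not tested.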

How the data were processed

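RNA was measured in 8 strains by NAD captureSeq, with and without ADPRC, and by a directional transcriptome library after rRNA depletion, with 3 biological replicates per group. The authors deposited raw counts per RNA: reads were trimmed, rRNA and tRNA reads set apart, the rest aligned with Bowtie to a BY4742 genome, with multi-mapping reads placed at one of the best sites, and counted by strand with HTSeq. The deposited counts of mRNAs cover a window around the start codon, and a second transcriptome table covers coding sequences. Tables of the authors' own comparisons (DESeq2 1.4.5, fold changes and p-values) were not used.

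Counts were tested with edgeR 4.0.16 (R 4.3.3, quasi-likelihood, TMM, base mean above 1, Benjamini-Hochberg over all RNAs tested), and DESeq2 1.42.0 was an alternative. Fold intervals are exact 95% counting intervals. The test was tried on simulated data with 200 changed RNAs. Only RNAs above a minimum mean count were changed, with a fixed dispersion, so the simulation does not cover sigma copies with few capture reads. Named copies were those with an adjusted capture or interaction call, the 8 with most reads in each assay, and the 5 largest rises and falls against WT; other copies are named within counts. The members and lists were chosen with earlier results of these data known. Sequences are from RefSeq R64, with uniqueness counted in 25-base windows. The tables were fitted separately per kind of library. Counted reads were 470978 to 33878538 per library, so copies with few reads are imprecise. Alternatives were other scaling, tools, filters, a replicate block and each library left out.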

Additional observations from a re-analysis of the deposited data

Results flagged for a closer look

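YORWsigma4 stood out because its enrichment with ADPRC differed between npy1Δ and WT in unfragmented RNA, by the interaction test of edgeR (adjusted p = 0.00186, log2 −10.17). WT had 7, 0 and 10 reads with ADPRC and none without, and npy1Δ had 3, 0 and 3 with and 11, 0 and 7 without. The difference was −8.10 with RLE factors and −7.24 in DESeq2, neither of them called. Its transcript level also differed, at 109 CPM (TMM-normalised) in WT and 6.29 in npy1Δ.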

How the results depend on the processing

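Correlations did not show a pairing by replicate number: in 0 of 26 comparisons was every same-number correlation above 0.1 (range −0.633 to 0.484). Low correlations cannot exclude that +ADPRC and −ADPRC libraries of the same number came from the same RNA. The counts with a block therefore belong beside the main ones. With a replicate block, enriched copies numbered 0 in WT, 0 in npy1Δ, 3 in dxo1Δ, 1 in rai1Δ, 1 in dxo1Δnpy1Δ, 7 in dxo1Δrai1Δ, 4 in rai1Δnpy1Δ and 3 in dxo1Δrai1Δnpy1Δ, and 0 in the fragmented RNA. Copies changed with the block against WT were 20 in npy1Δ, 19 in dxo1Δ, 18 in rai1Δ, 22 in dxo1Δnpy1Δ, 19 in dxo1Δrai1Δ, 18 in rai1Δnpy1Δ and 17 in dxo1Δrai1Δnpy1Δ, with 18 and 16 for the RAI1 pairs and 0 for the other pairs, and the interaction with a block called 1 copy in npy1Δ against WT.

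With RLE factors enriched copies were 5 in dxo1Δ, 21 in rai1Δ, 19 in dxo1Δnpy1Δ, 8 in rai1Δnpy1Δ and 22 in dxo1Δrai1Δnpy1Δ, and the npy1Δ interaction called 0. With total counts they were 3 in npy1Δ, 20 in rai1Δ, 19 in dxo1Δnpy1Δ, 8 in rai1Δnpy1Δ, 24 in dxo1Δrai1Δnpy1Δ and 1 in large fragmented npy1Δ, and copies changed against WT were 31 in rai1Δ, 30 in dxo1Δrai1Δ, 28 in rai1Δnpy1Δ and 30 in dxo1Δrai1Δnpy1Δ. DESeq2 called 11 copies in rai1Δ, 13 in dxo1Δnpy1Δ, 11 for dxo1Δrai1Δ against dxo1Δ and 0 for the npy1Δ interaction. Without a filter rai1Δnpy1Δ had 12 and large fragmented npy1Δ 1, and at an adjusted p npy1Δ had 0. YNLWsigma2 in npy1Δ lost its call with the block (log2 2.01) and without each +ADPRC library (1.12 to 1.90).

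Leaving out each library gave enriched copies of 1 to 2 in WT, 0 to 1 in npy1Δ, 2 to 4 in dxo1Δ, 1 to 8 in rai1Δ, 1 to 2 in dxo1Δnpy1Δ, 9 to 17 in dxo1Δrai1Δ, 3 to 7 in rai1Δnpy1Δ, 7 to 17 in dxo1Δrai1Δnpy1Δ and 0 to 1 in large fragmented npy1Δ (1 without −ADPRC 1 or +ADPRC 3). Copies changed against WT were 19 to 21 in npy1Δ and 14 to 23 in the other mutants, and 15 to 17 and 14 to 17 for the RAI1 pairs. The dxo1Δrai1Δnpy1Δ interaction gave 0 to 2 (2 without dxo1Δrai1Δnpy1Δ −ADPRC 2).

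The ratio of the sigma share with to that without ADPRC depended on the denominator. Over all counted reads it was 14.6 in WT, 2.34 in npy1Δ, 54.7 in dxo1Δ, 30.7 in rai1Δ, 66.4 in dxo1Δnpy1Δ, 26.9 in dxo1Δrai1Δ, 37.7 in rai1Δnpy1Δ and 15.0 in dxo1Δrai1Δnpy1Δ, and over mRNA reads 4.13, 0.248, 1.72, 0.899, 1.88, 1.14, 1.03 and 0.75. In small fragmented WT and npy1Δ it moved from 1.45 and 1.64 to 0.966 and 1.02, and in large fragmented WT and npy1Δ from 1.63 and 2.1 to 1.37 and 1.4. Over mRNA reads the ratios of npy1Δ, rai1Δ, dxo1Δrai1Δnpy1Δ and small fragmented WT were thus below 1, and the cause was not tested. Those of rai1Δ and small fragmented WT were close to 1 on 15 and 36 −ADPRC sigma reads, so no direction is read from them. That of dxo1Δrai1Δnpy1Δ rested on 51 such reads. The coding-sequence table, and total counts between mutants, were chosen after seeing the data. Few capture reads per copy limited what the depth could show.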
